A study of Mus musculus with 24 samples.

Results

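Contacts between gene promoters that lie on different chromosomes, and that recurred across libraries, were examined in mouse cranial neural crest cells, the migratory cells from which most facial bone and cartilage forms. The contacts were measured by promoter capture Hi-C, in which cross-linked chromatin is cut with the enzyme HindIII, ligated, and enriched for junctions that hold a promoter fragment, called a bait. A recurrent pair was defined as 2 baits on different chromosomes that were called as interacting in at least 4 of the 24 libraries. Pairs with the bait at Wnt1 were left out. The rule found 259 recurrent pairs on 251 bait fragments, among 3946 promoter pairs on different chromosomes called in any library, 142575 promoter pairs of all kinds and 1242966 called interactions. The deposited calls themselves chose the pairs, so the number of libraries with a call is a description and not a finding. A pair absent from 1 set of libraries had to be called at least 4 times in the others to be counted.

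The libraries formed 12 groups of 2 replicates, which the labels call biological, with 2 kinds of deletion, a conditional knockout and wild type (WT). Hoxa2PTE-36kb-del embryos were profiled in the Md and PA2 at E11.5, and Hoxa2PTE-42kb-del embryos in the PA2 at E11.5. Ezh2cKO embryos, a conditional knockout of Ezh2, and WT embryos were each profiled in the FNP, Mx, Md and PA2 at E11.5, and WT neural crest progenitors at E8.5. In this field FNP, Mx and Md commonly stand for the frontonasal, maxillary and mandibular prominences, and PA2 for the second pharyngeal arch. Sorting is named for Wnt1::Cre;ROSARFP and Ezh2cKO embryos. The labels do not say whether the deletion embryos carried Cre or had their cells sorted, which driver removed Ezh2, what PTE abbreviates, or the position of either deletion. The assay holds no expression values, so the labelled cell type could not be checked against marker genes. Each library has a batch label of its own, so batch could not be told apart from library.

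Polycomb repressive complex 2, whose catalytic subunit is Ezh2, methylates histone H3 at lysine 27 and marks silent developmental genes. Hox genes encode homeobox factors that set position along the body axis, lie in clusters on different chromosomes and are classic Polycomb targets. Replication-dependent histone genes also lie in clusters on different chromosomes, are transcribed in S phase and gather at nuclear bodies called histone locus bodies. Promoter contacts between chromosomes are rarer than those within a chromosome and are easily missed at limited depth.

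Promoters are shown for the 3 kinds of pairs that the results turn on: Hoxb8 for the Hox clusters, H2ac8, H4c6 and H3c15 for the histone clusters, and Prdx2 with Dut for the pair of 2 named baits called in the most libraries. Each sequence is the RefSeq window of GRCm38.p6 from 250 bases before to 50 bases after the annotated start, read 5′ to 3′ on the gene's strand. The Hoxb8 window is chr11:96281655-96281954 on the plus strand. The histone windows are chr13:23571171-23571470 for H2ac8, chr13:23551619-23551918 for H4c6 and chr3:96239078-96239377 for H3c15, all on the minus strand. The windows of Prdx2, chr8:84969372-84969671, and Dut, chr2:125247265-125247564, are on the plus strand. Capitals mark CG and the HindIII site AAGCTT in Hoxb8, 3 strings of letters on either strand in the histone genes (TATAAA, the CCAAT of many S phase genes, and the octamer ATGCAAAT), and CG in Prdx2 and Dut.
Hoxb8: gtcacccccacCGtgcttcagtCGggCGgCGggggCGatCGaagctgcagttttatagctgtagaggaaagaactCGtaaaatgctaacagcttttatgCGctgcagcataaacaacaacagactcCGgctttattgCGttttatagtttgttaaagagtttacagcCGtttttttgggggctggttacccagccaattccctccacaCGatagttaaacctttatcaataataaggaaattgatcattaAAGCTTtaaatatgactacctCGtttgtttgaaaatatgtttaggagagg
H2ac8: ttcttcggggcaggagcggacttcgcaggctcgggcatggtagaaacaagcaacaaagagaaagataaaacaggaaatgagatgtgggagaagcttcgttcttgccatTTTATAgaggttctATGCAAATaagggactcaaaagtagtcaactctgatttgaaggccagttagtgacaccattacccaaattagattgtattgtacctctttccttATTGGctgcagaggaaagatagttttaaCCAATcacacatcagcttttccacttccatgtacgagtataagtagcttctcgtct
H4c6: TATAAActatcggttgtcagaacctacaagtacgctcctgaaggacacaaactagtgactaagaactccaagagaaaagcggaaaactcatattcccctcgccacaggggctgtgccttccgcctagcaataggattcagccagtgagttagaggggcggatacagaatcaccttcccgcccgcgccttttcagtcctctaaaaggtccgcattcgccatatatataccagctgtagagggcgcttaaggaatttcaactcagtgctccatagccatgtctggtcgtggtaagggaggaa
H3c15: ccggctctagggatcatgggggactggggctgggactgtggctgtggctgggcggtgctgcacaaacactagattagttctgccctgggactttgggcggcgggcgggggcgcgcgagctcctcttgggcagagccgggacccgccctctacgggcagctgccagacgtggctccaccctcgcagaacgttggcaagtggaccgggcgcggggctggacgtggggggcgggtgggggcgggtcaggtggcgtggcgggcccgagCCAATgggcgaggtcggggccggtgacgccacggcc
Prdx2: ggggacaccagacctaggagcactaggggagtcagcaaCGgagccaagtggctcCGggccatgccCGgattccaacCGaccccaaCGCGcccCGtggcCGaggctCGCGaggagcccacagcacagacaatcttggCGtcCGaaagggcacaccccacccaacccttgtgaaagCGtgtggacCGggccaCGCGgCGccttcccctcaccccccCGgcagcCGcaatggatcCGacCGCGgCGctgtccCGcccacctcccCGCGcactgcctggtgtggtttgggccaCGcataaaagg
Dut: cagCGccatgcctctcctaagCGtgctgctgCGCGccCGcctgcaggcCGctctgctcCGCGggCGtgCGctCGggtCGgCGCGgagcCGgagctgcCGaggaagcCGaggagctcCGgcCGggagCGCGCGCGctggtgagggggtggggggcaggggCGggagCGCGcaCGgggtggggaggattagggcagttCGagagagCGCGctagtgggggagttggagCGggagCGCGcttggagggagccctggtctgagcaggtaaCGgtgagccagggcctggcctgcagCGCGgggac
In these windows Hoxb8 held 13 CG, Prdx2 27 and Dut 36. The HindIII site in the Hoxb8 window starts at the last base of the Hoxb8 fragment, so the window spans the cut between the Hoxb8 and Hoxb7 fragments. Of the 224 genes of the recurrent pairs, 164 matched the RefSeq table, with 194 windows. Their median was 17 CG per window, against a median of 7 over all 32851 windows, and 7.22% of them held AAGCTT, against 7.45% of all windows. All windows here means those of 27025 genes, with or without a bait. Unlike the names of the baits, they were not limited to protein-coding genes, so the 2 sets differ in more than recurrence. Among the 24 matched windows of the 25 histone genes, TATAAA, read on both strands, occurred in 15 (62.5%), against 13.6% of all windows. CCAAT occurred in 21 (87.5%), against 37.4% of all windows. The octamer ATGCAAAT occurred in 5 (20.8%), against 1.74% of all windows. The 24 windows are not all distinct, since 4 of them, 2 with the octamer, overlap another one. The H2ac8 window is one of these. It overlaps that of H2bc8, chr13:23571150-23571449 on the plus strand, and the letters marked in it lie in both windows, so they are not particular to H2ac8. In H4c6 the letters TATAAA are the first bases of the window, at the end farthest from the annotated start, so a match here is one of letters only. Each motif was searched on both strands, and a window could hold several motifs. Only 4 of the 19 Hox genes had a window in the table, with 10 to 15 CG each, and at least 1 CG occurred in 94.6% of all windows.

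Recurrence was rare among promoter pairs on different chromosomes. Of the 3946 such pairs, 3379 (85.63%) were called in 1 library and 6.564% in 4 or more, whereas 51.97% of promoter pairs on the same chromosome were called in 1 library and 28.22% in 4 or more. The score of a call, CHiCAGO's measure against the background of its own library, had a median of 6.75 for pairs called in 1 library. Just outside the threshold, the 101 pairs called in 3 libraries had a median score of 8.19, and just inside it the 50 pairs called in 4 libraries had 10.7. The 20 pairs called in 18 libraries had a median of 104.31. The recurrent pairs were called in a median of 7 libraries, with a range of 4 to 22. Libraries held 142284 to 190343 called interactions, and no read counts were used, so read depth is unknown.

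The recurrent pairs fell into a few families, which were described after the pairs had been listed. The Ddn fragment, next to the Wnt1 bait, gave 66 pairs, and the Hox clusters gave 53. Another 62 joined a single fragment to 1 region of another chromosome, 28 joined the histone clusters of chromosomes 13 and 3, and 10 joined a fragment on chromosome 11 to many chromosomes. The other 40 pairs belonged to none of these. Per library, 47 and 53 recurrent pairs were called in 36kb deletion Md, 37 and 51 in 36kb deletion PA2 and 28 and 33 in 42kb deletion PA2. In Ezh2cKO libraries the count was 75 to 106 (median 95), in E11.5 WT libraries 128 to 139 (median 131.5), and in E8.5 progenitors 86 and 93. The ranges of Ezh2cKO and E11.5 WT did not overlap, also without the Ddn fragment, where they were 41 to 68 in Ezh2cKO and 77 to 86 in E11.5 WT.

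**Figure D1:**
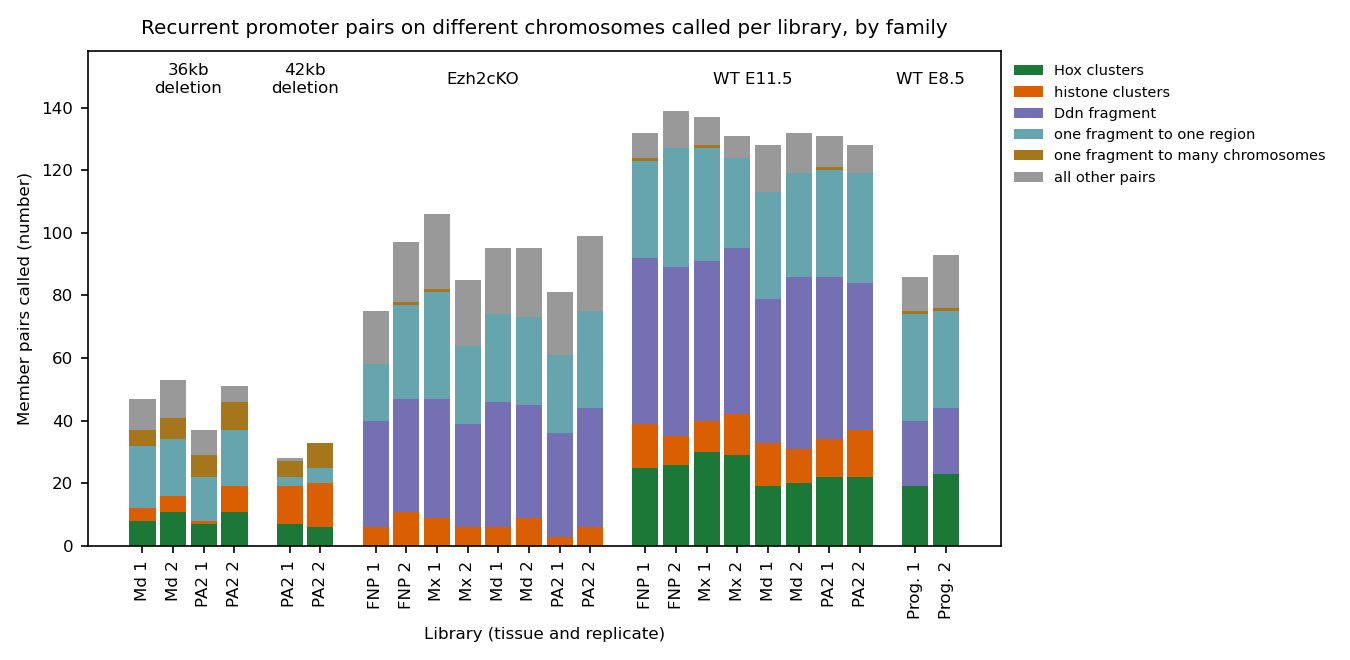
Number of recurrent promoter pairs on different chromosomes called in each library, stacked by family, with tissue and replicate on the horizontal axis ("Prog." are the E8.5 progenitors). Hox pairs are absent from all 8 Ezh2cKO libraries, histone pairs from both E8.5 libraries and pairs of the Ddn fragment from all 6 deletion libraries.

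Hox genes lay on 8.367% of the fragments of the recurrent pairs and on 0.1847% of all baits, and 19 of the 37 Hox genes with a bait took part. Replication-dependent histone genes lay on 7.171% of these fragments and on 0.1531% of all baits, and 25 of 56 took part. Most of the fragments, 59.36%, carried named genes outside the listed classes, against 64.61% of all baits. As a yardstick, the 251 fragments are 1.13% of all baits. Of the other homeobox genes 1 of 118 took part, Tlx3, and of 178 further developmental factors 1, Hand1. Ribosomal protein genes gave 3 of 155, zinc-finger genes 3 of 303, clustered protocadherins 2 of 26, and housekeeping genes 1 of 56, which was Ppia. None of the 127 genes of secreted signals and receptors, 34 Polycomb subunits and 96 keratins took part. Nor did any of the 12 neuronal and glial, 9 endothelial, 13 blood, 10 muscle or 11 epithelial marker genes. At a share of 1.13%, lists as short as those of the markers and the Polycomb subunits would mostly hold none. Whether the 127 and 96 genes of the longer lists fall below this share was not tested. Of 982 olfactory and vomeronasal receptor genes 7 took part, 5 of them as partners of the fragment chr11:3191408-3199767, a share below that of all baits. Pairs with a Hox gene on both sides made up 12.74% of the recurrent pairs and 4.231% of the promoter pairs on different chromosomes called in fewer than 4 libraries. The same shares for histone genes were 10.81% and 1.139%.

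The Hox pairs joined mainly 2 clusters. Of the 53, 47 joined Hoxb on chromosome 11 to Hoxc on chromosome 15, 4 joined Hoxa on chromosome 6 to Hoxc and 2 joined Hoxa to Hoxb, and none involved Hoxd. Over all possible combinations, 125 of 150 Hoxb and Hoxc fragment pairs were called in some library, against 75 of 130 for Hoxa with Hoxc, 56 of 195 for Hoxa with Hoxb, 15 of 100 for Hoxc with Hoxd, 8 of 150 for Hoxb with Hoxd and 1 of 130 for Hoxa with Hoxd. The contacts were spread over the clusters: Hoxb7, Hoxb8 and Hoxb2 were each called with all 10 Hoxc fragments in some E11.5 WT library. The pair called in the most libraries, 9, joined an unnamed fragment that overlaps Hoxb3 (chr11:96321828-96327276) to Hoxc10, and its median score was 5.92. Hoxb8 with Hoxc11 was called in 8 libraries, and Hoxb7 with Hoxc8 in 7, all of them E11.5 WT. The median score was 9.36 over the 53 pairs, against 12.88 over all recurrent pairs.

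In Ezh2cKO libraries no Hox pair of any of these cluster combinations was called. Between Hoxb and Hoxc, 0 fragment pairs were called in each of the 8 Ezh2cKO libraries, against 30 and 52 in WT FNP, 43 and 49 in WT Mx, 29 and 21 in WT Md and 33 and 27 in WT PA2. In such bulk libraries, fewer cells with a contact and fewer contacts per cell cannot be told apart. The genotypes did not overlap, and E8.5 progenitors, with 24 and 35, lay within the range of E11.5 WT. Deletion libraries also held these contacts, at 8 and 12 in 36kb Md, 10 and 17 in 36kb PA2 and 8 and 6 in 42kb PA2, all below the lowest E11.5 WT library. Within chromosomes, calls of the same baits were at similar levels in both genotypes: the 26 Hox fragments had 1231.2 ± 51.6 same-chromosome calls per library in Ezh2cKO and 1238 ± 63.6 in E11.5 WT (SD, n = 8 each), a difference smaller than the spread between libraries.

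**Figure D2:**
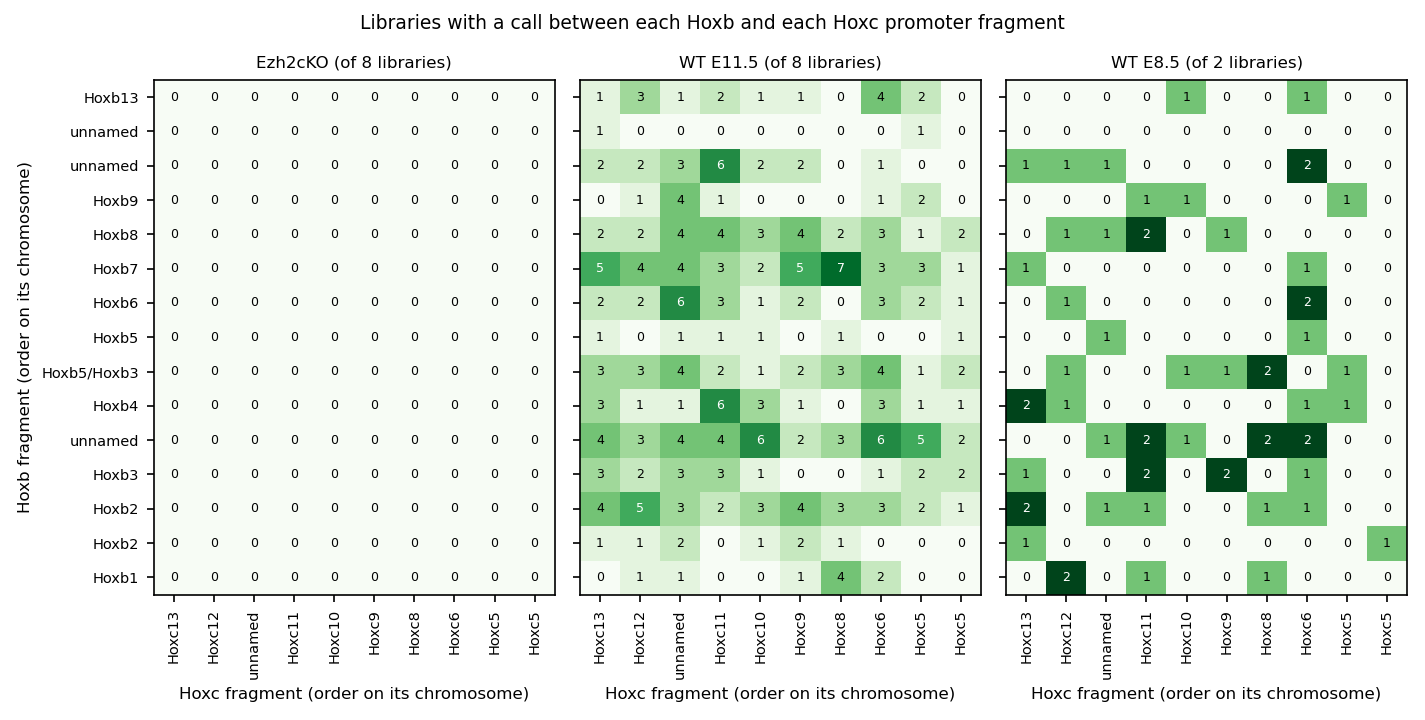
Number of libraries with a call between each Hoxb fragment (rows) and each Hoxc fragment (columns), in Ezh2cKO, E11.5 WT and E8.5 WT, in order along each chromosome and shaded relative to the number of libraries in the panel. Every cell is 0 in Ezh2cKO, 115 of the 150 combinations have a call in E11.5 WT, and the calls are spread over rows and columns.

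To test this per promoter, the partners of each bait on other chromosomes were counted, scaled to the library's promoter pairs on different chromosomes, and fitted with limma for the 48 baits that averaged 1 partner or more. Because 46 of these 48 baits are on recurrent pairs, the share called among them is no independent background. The average is taken over all 24 libraries, so a bait with partners in 1 set alone could enter through that set. Between Ezh2cKO and E11.5 WT, 26 baits were lower (54.2%) and 4 higher (8.33%), and all 19 fragments named for a Hox gene were lower, also relative to all called interactions and with no scaling. Of these 19, 13 averaged under 1 partner outside the E11.5 WT libraries and entered through those, as did 3 of the 4 higher baits through Ezh2cKO, so their number is a description and supports nothing further. The median log2 change over the 48 baits was -1.74, and -2.13 relative to all called interactions. Hoxc13, a regulator of hair and nail formation, had 0 partners in every Ezh2cKO library and 3 to 12 (median 7.5) in E11.5 WT, and the fitted log2 change was -3.48 (SE 0.2, limma adjusted p = 2.26e-11). Hoxc6 had 0 in Ezh2cKO and 4 to 11 (median 7) in E11.5 WT, a log2 change of -3.59 (SE 0.21, adjusted p = 2.26e-11). Hoxb8 had 0 in Ezh2cKO and 3 to 7 (median 5.5) in E11.5 WT, a log2 change of -3.17 (SE 0.31, adjusted p = 4.3e-08). For Hoxb2, a factor of hindbrain and second arch patterning, the ranges touched, with 0 to 1 in Ezh2cKO and 1 to 11 (median 7) in E11.5 WT, and the log2 change was -2.96 (SE 0.32, adjusted p = 1.63e-07). The Hox ranges of Ezh2cKO and E11.5 WT did not overlap for Hoxc13, Hoxc6 and Hoxb8. Where a group is at 0, the fitted change depends on the 0.5 added to each count and is no bound. Hoxb and Hoxc baits count the same pairs from both ends, so the 19 results are not independent. A test of whether the Ezh2cKO effect differed between the 4 tissues passed for 0 of 48 baits (limma F test, with 1 at an unadjusted p under 0.05).

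Between E11.5 WT and E8.5 progenitors 0 of the 19 Hox fragments passed the limma test, so no change of these contacts with stage was detected. Hoxb7, for example, had 2 to 14 partners (median 6.5) in E11.5 WT and 2 and 2 in E8.5, a log2 change of 1.31 (SE 0.63, adjusted p = 0.171). Among the 48 baits 6 were higher (12.5%) and 1 lower (2.08%) in this comparison. Between 36kb deletion and WT, where 4 of the 48 were higher (8.33%) and 8 lower (16.7%), the named Hox fragments Hoxc8, Hoxb6 and Hoxb13 were lower. Relative to all called interactions 27 of the 48 were lower and 3 higher, with 13 of the 19 Hox fragments lower. Hoxc8 had 0, 0, 0 and 2 partners in 36kb deletion libraries and 3, 2, 2 and 4 in WT Md and PA2, so the ranges touched, with a log2 change of -1.36 (SE 0.39, adjusted p = 0.0158). Each of these 3 calls was lost without 1 or more single libraries, with adjusted p up to 0.0932 for Hoxc8 and 0.197 for Hoxb13. Between 42kb deletion and WT PA2, 2 of the 48 baits were higher (4.17%) and 20 lower (41.7%), among them 10 of the 19 Hox fragments. Hoxb8 had 0 and 0 partners in 42kb deletion and 7 and 3 in WT PA2, a log2 change of -3.37 (SE 0.62, adjusted p = 0.000291). Hoxc12 had 0 and 0 in 42kb deletion and 6 and 5 in WT PA2, a log2 change of -3.59 (SE 0.72, adjusted p = 0.000553). The calls of Hoxb8, Hoxc12 and Hoxc8 remained without each single library, and those of the other 7 were lost without at least 1. The deletion comparisons share the WT PA2 libraries. The 36kb deletion libraries also had fewer same-chromosome calls at the 26 Hox fragments, 981 ± 90.2 per library against 1280 ± 62.9 in WT Md and PA2 (SD, n = 4 each). The 42kb deletion libraries had 1089 and 1162 such calls, against 1317 and 1348 in WT PA2, and neither deletion overlapped its WT. Same-chromosome calls were also fewer over all baits. They numbered 136997 to 149469 per library in 36kb deletion and 164459 to 168276 in WT Md and PA2. In 42kb deletion they numbered 147696 and 152360, against 164459 and 165888 in WT PA2. What these calls add to the result was not tested.

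The histone pairs joined the large cluster of chromosome 13 to the smaller one of chromosome 3. Of 140 possible fragment pairs, 70 were called in some library and 28 were recurrent. H4c14 on chromosome 3, a histone H4 gene, took part in 12, and the fragment of H3c15 and H2ac19, genes of histones H3 and H2A, in 11. H4c6 with H4c14 and H2ac8 with H4c14 were each called in 11 libraries, with median scores of 9.36 and 15.09. The single histone bait on chromosome 6 was called with neither cluster.

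The contacts between histone promoters were called at E11.5 and not at E8.5. The number of chromosome 13 and 3 fragment pairs called was 17 and 11 in WT FNP, 14 and 18 in WT Mx, 23 and 17 in WT Md and 26 and 20 in WT PA2, and 0 and 0 in E8.5 progenitors. The 2 stages did not overlap. H4c14 had 5 to 10 partners (median 6.5) in E11.5 WT and 0 and 0 in E8.5, a log2 change of 3.79 (SE 0.48, limma adjusted p = 1.2e-05). The H3c15 and H2ac19 fragment had 3 to 9 (median 6) in E11.5 WT and 0 and 0 in E8.5, a log2 change of 3.55 (SE 0.64, adjusted p = 0.000302). Over the whole span of its partners on chromosome 13, promoters or not, this fragment averaged 7.38 calls per library in E11.5 WT and 0.5 in E8.5. H2ac8 had 2 to 4 (median 2.5) in E11.5 WT and 0 and 0 in E8.5, a log2 change of 2.5 (SE 0.54, adjusted p = 0.00195). Of the 8 histone fragments tested, 5 were higher at E11.5. The fifth, H4c2, averaged 0.81 partners outside the E11.5 WT libraries and entered through those, so its result is a description. It also lost its call without 6 of the 10 libraries in turn. The 18 histone fragments also had fewer same-chromosome calls at E8.5, 788 and 804 per library, against 1055.2 ± 53.2 in E11.5 WT (SD, n = 8). Over all baits such calls numbered 149642 and 157577 at E8.5 and 163068 to 170751 in E11.5 WT. The part of this in the result was not tested.

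**Figure D3:**
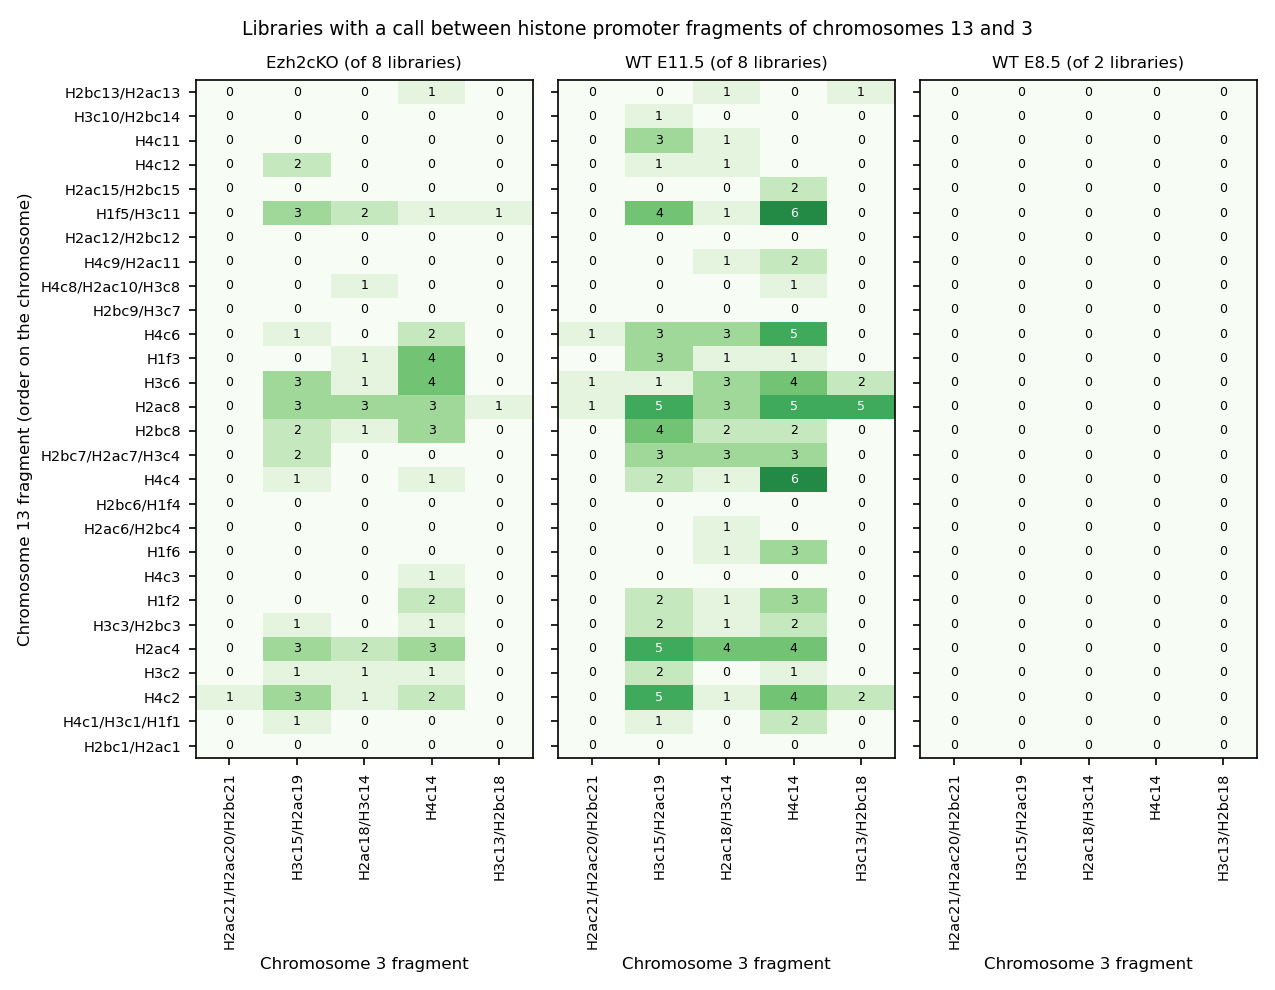
Number of libraries with a call between each histone fragment of chromosome 13 (rows) and of chromosome 3 (columns), in Ezh2cKO, E11.5 WT and E8.5 WT, in order along each chromosome and shaded relative to the number of libraries in the panel. Calls are present in 39 combinations in Ezh2cKO and 60 in E11.5 WT, 33 of them shared, and in none in E8.5.

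In Ezh2cKO libraries the histone contacts were present but fewer in number. The count of fragment pairs was 4 to 14 (median 8.5) in Ezh2cKO and 11 to 26 (median 17.5) in E11.5 WT, and the ranges overlapped. With partner numbers scaled to the library's promoter pairs on different chromosomes, 0 of the 8 histone fragments passed the limma test, and relative to all called interactions 4 of the 8 were lower. H4c14 had 1 to 6 partners (median 3) in Ezh2cKO and 5 to 10 (median 6.5) in E11.5 WT, a log2 change of -0.63 (SE 0.3, adjusted p = 0.0785), which was -1.02 (adjusted p = 0.00444) relative to all called interactions. H2ac8 had 0 to 2 (median 1.5) in Ezh2cKO and 2 to 4 (median 2.5) in E11.5 WT, with an adjusted p of 0.0785 and, relative to all called interactions, 0.00992. The same-chromosome calls of the 18 histone fragments were 1075.8 ± 57.6 per library in Ezh2cKO and 1055.2 ± 53.2 in E11.5 WT (SD, n = 8 each). In deletion libraries the counts of fragment pairs were 6 and 5 in 36kb Md, 2 and 12 in 36kb PA2, and 16 and 17 in 42kb PA2, against 23 and 17 in WT Md and 26 and 20 in WT PA2. H4c14 had 2, 0, 2 and 4 partners in 36kb deletion libraries and 9, 5, 6 and 8 in WT Md and PA2, a log2 change of -1.21 (SE 0.43, adjusted p = 0.0453) that was lost without 6 of the 8 libraries in turn. The same held for the H3c15 and H2ac19 fragment, with 0, 3, 0 and 5 in 36kb deletion and 7, 5, 9 and 8 in WT Md and PA2 (log2 change -1.65, SE 0.57, limma adjusted p = 0.0424). In 42kb deletion 0 of the 8 histone fragments passed, and H4c14 had 11 and 8 partners there.

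The fragment with the most pairs held Ddn, which encodes dendrin, a protein of neurons and kidney podocytes. It lies at chr15:98794666-98808156, 3.1 kb from the Wnt1 bait and 4.11 Mb from the first Hoxc fragment, and all 66 partners were on chromosome 11. The strongest was Ppia, which encodes the prolyl isomerase cyclophilin A, with a median score of 1000.74. The 20 partners within 0.5 Mb of Ppia had a median score of 118.79, among them Purb, a nucleic acid binding protein, and Zmiz2, a transcriptional coactivator. The 28 partners at 0.5 to 5 Mb had a median of 13.74. Another 17 lay beyond 5 Mb, with a median of 19.06, and 14 of these were fragments of the Hoxb cluster. Distances were measured from the partner with the highest score, which by construction puts the highest value at 0. The others were Tlx3, a homeobox gene of sensory neurons, Hand1, a basic helix-loop-helix factor of the heart and the lower jaw, and an unnamed neighbour of Hand1.

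**Figure D4:**
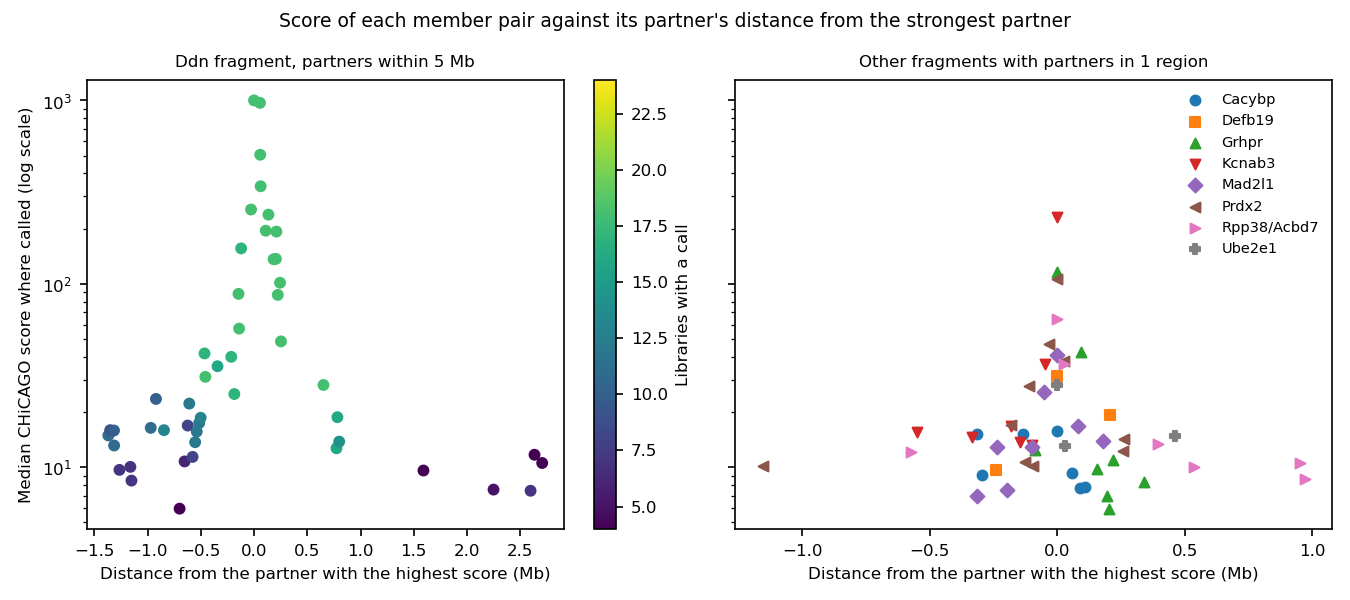
Median score of each recurrent pair (log scale) against the distance of the partner from the partner with the highest score, in Mb, for the Ddn fragment (left, coloured by the number of libraries with a call) and for 8 other fragments whose partners lie in 1 region (right). Since 0 is the partner with the highest score, lower values on both sides follow from the choice of 0, and for the Ddn fragment the score is 1000.74 at Ppia and the median 13.74 at 0.5 to 5 Mb.

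The Ddn pairs were absent from every deletion library, where 0 of 66 were called in any of the 6, against 46 to 55 in E11.5 WT. Ezh2cKO libraries held 33 to 40 (median 36), E11.5 WT 46 to 55 (median 52.5) and E8.5 21 and 21, with no overlap between these sets. The counts are given for 2 parts of the partner set. Near Ppia the count was 33 to 39 in Ezh2cKO and 36 to 43 in E11.5 WT, which overlap, and 20 and 21 in E8.5. Elsewhere on chromosome 11 it was 0 to 1 in Ezh2cKO, 10 to 16 in E11.5 WT, and 1 and 0 in E8.5. The 14 Hoxb partners had 1 call over all Ezh2cKO libraries together, 82 over all E11.5 WT libraries and 0 over both E8.5 libraries. Of the 66 Ddn pairs, 16 were called only in E11.5 WT libraries, those with Hoxb7 and Hoxb8 among them. These were recurrent through E11.5 WT alone, so the counts of the Hoxb partners and of the part elsewhere on chromosome 11 are a description. Scaled to the library's promoter pairs on different chromosomes, the partner number of the fragment did not pass between Ezh2cKO and E11.5 WT, with 34 to 46 partners (median 38) in Ezh2cKO, 50 to 60 (median 56) in E11.5 WT and a log2 change of -0.14 (SE 0.11, limma adjusted p = 0.267). Relative to all called interactions it was lower in Ezh2cKO, with a log2 change of -0.53 (adjusted p = 3.68e-07). It was higher at E11.5, with 22 and 21 partners in E8.5 and a log2 change of 1.23 (SE 0.17, adjusted p = 2.71e-05). The partner number was 0 in all deletion libraries, and the fitted log2 change was -6.05 (SE 0.15, adjusted p = 1.44e-17) for 36kb and -6.74 (SE 0.22, adjusted p = 1.11e-15) for 42kb. Same-chromosome calls of the fragment were present in all sets, at 4 to 8 in 36kb deletion, 10 and 11 in 42kb deletion, 10 to 22 in Ezh2cKO and 7 to 17 in E11.5 WT. Wnt1::Cre is a transgene that carries regulatory sequence of Wnt1, the neighbour of Ddn. Its part in these calls was not tested, and comparisons are therefore also given without the fragment.

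A second kind of pair joined a single fragment to neighbouring promoters in 1 region of another chromosome. The fragment of Prdx2, a peroxiredoxin that reduces hydrogen peroxide, was paired with 10 promoters of chromosome 2, the strongest being Dut, which encodes the enzyme that breaks down dUTP. Dut with Prdx2 was called in 22 libraries, in all but the 2 of 42kb deletion, with a median score of 106.59, and the 8 partners within 0.5 Mb had a median of 15.64. The fragment of Grhpr, a glyoxylate reductase, had 8 partners on chromosome 10, among them Slc17a8, a vesicular glutamate transporter, called in 21 libraries. Grhpr's strongest partner, an unnamed fragment that overlaps Nr1h4, was called in 22 libraries with a median score of 116.26. Kcnab3, a potassium channel subunit, was paired with the carboxylesterase cluster of chromosome 8, most strongly with Ces1h at a median score of 231.31. The fragment of Rpp38, an RNase P subunit, and Acbd7 held the only recurrent pair called in all 12 groups, with an unnamed partner at chr9:82461801-82463829.

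The same regions held calls to fragments that are not baits, and for some of the single fragments, such as that of Rpp38 and Acbd7, the highest score was at one of these. Over all libraries 95.9% of the different-chromosome calls of the Ddn fragment fell in the span of its partners, which covers much of chromosome 11. For smaller spans the share was 89% for Prdx2, 83.5% for Mad2l1, a spindle checkpoint protein, 81.3% for Grhpr and 79% for Rpp38 and Acbd7. It was lower for others, at 68.4% for Defb19, a defensin gene, 57.4% for Kcnab3 and 46.8% for Ube2e1. Cacybp had 89.7%. In the region of Rpp38 and Acbd7 on chromosome 9, the fragment chr9:82561257-82563102 was called in 24 libraries with a median score of 785, against 64.25 for the strongest promoter.

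These single-fragment contacts differed between groups one by one. Prdx2 had 1 to 5 (median 3) in Ezh2cKO and 8 to 12 (median 9.5) in E11.5 WT, with no overlap, and a log2 change of -1.25 (SE 0.22, limma adjusted p = 4.91e-05). Ube2e1, a ubiquitin-conjugating enzyme, went the other way, with 2 to 4 (median 3.5) in Ezh2cKO and 0 to 1 (median 0.5) in E11.5 WT. Its log2 change was 2.48. Ube2e1 averaged 0.94 partners outside the Ezh2cKO libraries, so it was tested only through those and its values are a description. Its partners were Flt3, a receptor tyrosine kinase of blood progenitors, Pan3, a subunit of a deadenylase, and Pomp. Cacybp, a binding partner of calcyclin, was higher in Ezh2cKO too, at 1 to 6 (median 5) in Ezh2cKO and 0 to 3 (median 1.5) in E11.5 WT, with overlapping ranges and a log2 change of 1.67 (SE 0.37, adjusted p = 0.000401). Over the whole regions, promoters or not, Prdx2 averaged 12.62 calls per library in Ezh2cKO and 34.25 in E11.5 WT, and Cacybp 3.88 in Ezh2cKO and 1.62 in E11.5 WT. Grhpr, Mad2l1, Kcnab3 and the Rpp38 and Acbd7 fragment did not pass between Ezh2cKO and E11.5 WT, with adjusted p of 0.262, 0.727, 0.472 and 0.977.

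In deletion libraries several of these contacts were not called at all. Mad2l1 had 0 partners in each of the 4 libraries of 36kb deletion and 7, 4, 3 and 6 in WT Md and PA2, a log2 change of -2.68 (SE 0.4, limma adjusted p = 2.38e-05). In 42kb deletion it had 0 and 0, against 3 and 6 in WT PA2, with a log2 change of -3.27 (SE 0.56, adjusted p = 0.000133). Prdx2 had 0 and 0 partners in 42kb deletion and 12 and 10 in WT PA2, a log2 change of -4.53 (SE 0.45, adjusted p = 1.45e-07). In 36kb deletion Prdx2 had 2, 5, 2 and 5, against 8 to 12 in WT Md and PA2, with no overlap. The log2 change there was -0.81 (SE 0.32, adjusted p = 0.0738), which did not pass. Grhpr had 0 and 0 in 42kb deletion and 6 and 4 in WT PA2, a log2 change of -3.45 (SE 0.48, adjusted p = 1.3e-05). Some contacts were more numerous instead. Ube2e1 had 1, 2, 0 and 4 partners in 36kb deletion and 0, 0, 1 and 1 in WT Md and PA2, with overlap and a log2 change of 1.69 (SE 0.45, adjusted p = 0.014) that did not pass relative to all called interactions (adjusted p = 0.0538). Cacybp had 3, 2, 4 and 2 in 36kb deletion and 2, 2, 0 and 1 in WT Md and PA2, whose ranges touched, with a log2 change of 1.81 (SE 0.52, adjusted p = 0.0158) that was lost without 3 of the 8 libraries in turn. In none of the comparisons of Mad2l1, and of Prdx2 and Grhpr in 42kb deletion, did the sets overlap.

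**Figure D5:**
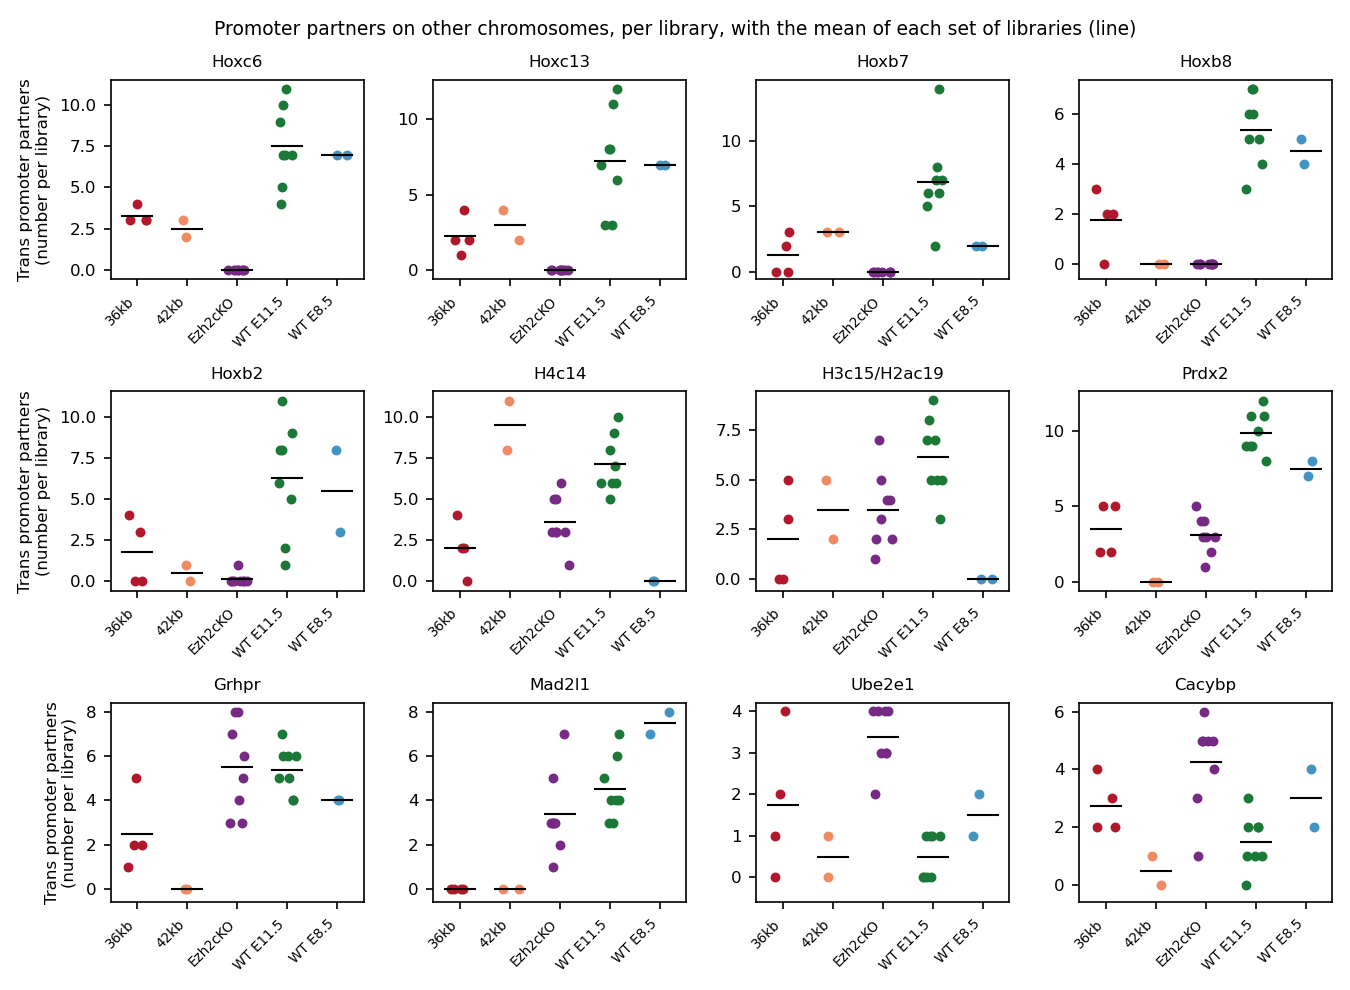
Number of promoter partners on other chromosomes per library (points) for 12 fragments, with the mean of each set of libraries as a line, for 36kb deletion, 42kb deletion, Ezh2cKO, E11.5 WT and E8.5 WT. Hoxc6, Hoxc13, Hoxb7 and Hoxb8 are at 0 in all Ezh2cKO libraries, H4c14 and the H3c15/H2ac19 fragment at 0 in both E8.5 libraries, and Mad2l1 at 0 in all 6 deletion libraries.

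One fragment on chromosome 11, chr11:3191408-3199767, which overlaps Sfi1, a centriole gene, had 10 recurrent pairs on 7 partner chromosomes. The partners were 5 odorant receptor genes, the adhesion genes Pcdhb8 and Pcdhb11, H60c, a ligand of a natural killer cell receptor, AU018091 and an unnamed fragment. Only H60c was also called outside the deletion libraries, with 2 of 8 Ezh2cKO, 3 of 8 E11.5 WT and 2 of 2 E8.5 libraries. The other 9 were called only in deletion libraries. The fragment had 38 and 44 promoter partners on other chromosomes in 36kb Md, 19 and 73 in 36kb PA2 and 53 and 57 in 42kb PA2. It had 0 and 3 in WT Md, and 1 and 1 in WT PA2, so the sets did not overlap. The log2 change was 5.52 (SE 0.57, limma adjusted p = 2.72e-07) for 36kb and 5.2 (SE 0.81, adjusted p = 4.89e-05) for 42kb. Its neighbour at chr11:3199768-3204951, with starts or ends of Eif4enif1, Gm51877 and Sfi1, had 6, 9, 5 and 9 partners in 36kb deletion and 2, 0, 0 and 0 in WT Md and PA2. It averaged 0.39 partners over the 18 libraries without a deletion, so it was tested only through the deletion libraries and its values are a description. In E11.5 libraries without a deletion the fragment had 0 to 3 partners in Ezh2cKO (median 1) and 0 to 3 in WT (median 2).

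Of the other 40 pairs, 13 were called in at least 4 Ezh2cKO libraries and in no E11.5 WT library, against 2.24% of all interactions. Among the 40, 8 were called only in Ezh2cKO libraries and so were recurrent through those alone. The counts per library are therefore a description. Per library, 17 to 24 (median 21) were called in Ezh2cKO and 7 to 15 (median 9.5) in E11.5 WT, with no overlap, and 11 and 17 in E8.5. Ank2, an ankyrin, with Trex2, an exonuclease gene of the X chromosome, was called in all 8 Ezh2cKO libraries and in no other. Ggct, an enzyme of glutathione breakdown, with Tmod3, which caps actin filaments, was called in 7 Ezh2cKO libraries and in no other (Fisher adjusted p = 0.177). Both pairs were thus tested only through Ezh2cKO, and their values are a description. Gm5414 with Mcts2, a retrogene related to a translation factor, was called in 7 of 8 Ezh2cKO, 0 of 8 E11.5 WT and 2 of 2 E8.5 libraries. The bait of Mcts2 had 0 to 6 partners (median 1.5) in Ezh2cKO, 0 in every E11.5 WT library, and 6 and 4 in E8.5. The log2 change was 2.27 between Ezh2cKO and E11.5 WT, and -3.55 between E11.5 WT and E8.5. The bait averaged 0.62 partners outside the Ezh2cKO libraries and 0.68 outside the E8.5 libraries. It thus entered each test only through the set where it is high, and its values are a description. Not all of this family differed between the genotypes: Syngr2, a synaptogyrin, with Nom1, a nucleolar protein, was called in all 8 Ezh2cKO, all 8 E11.5 WT and both E8.5 libraries, in 3 of 4 of 36kb deletion and in none of 42kb deletion.

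The presence of single pairs was then tested between Ezh2cKO and E11.5 WT with a two-sided Fisher's exact test over 8 against 8 libraries, across all 256173 interactions called in at least 4 libraries. Only complete separation of the 2 genotypes passed (adjusted p = 0.044), which 697 interactions did with fewer Ezh2cKO libraries (0.272%) and 208 with more (0.0812%), 0.353% in all. Of the 259 recurrent pairs, 2 passed as called in fewer Ezh2cKO libraries, Hoxb8 with Ddn and Hoxb7 with Ddn, each in 0 of 8 Ezh2cKO and 8 of 8 E11.5 WT libraries. Both were called in no other library, so they were tested only through E11.5 WT and their result is a description. The 4 that passed as called in more were Ube2e1 with Pan3, Ank2 with Trex2, an unnamed fragment at chr15:31275749-31277271 with Fam136a, and a pair of unnamed fragments of chromosomes 12 and 8. Ank2 with Trex2 was called in Ezh2cKO libraries alone and tested through those, so its result is a description too. At an unadjusted p under 0.05, 39 recurrent pairs (15.1%) were called in fewer Ezh2cKO libraries, against 1.93% of all interactions, and 13 (5.02%) in more, against 2.24% of all interactions. By the simpler rule of at least 4 E11.5 WT and 0 Ezh2cKO libraries, 51 of the 259 (19.7%) were absent from Ezh2cKO, 28 of them Hox pairs and 16 Ddn pairs, against 2.04% of all interactions. At least 4 Ezh2cKO and 0 E11.5 WT libraries held for 15 (5.79%), 13 of them among the other 40 pairs, against 2.24% of all interactions. Over the whole list, 91 recurrent pairs (35.1%) were called in no Ezh2cKO library, against 8.08% of all interactions.

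All promoter pairs on different chromosomes, recurrent or not, were also a smaller share of the calls in Ezh2cKO. They made up 0.1268% to 0.1557% (median 0.1306%) of called interactions in Ezh2cKO and 0.1652% to 0.2068% (median 0.1779%) in E11.5 WT, with no overlap. The mean was 0.1371 ± 0.0118% in Ezh2cKO and 0.1798 ± 0.013% in E11.5 WT (SD, n = 8 each), a difference of -0.0427 percentage points. A two-sided exact permutation test within tissues gave p = 0.001543, the smallest it can give. Libraries held 210 to 284 such pairs in Ezh2cKO and 283 to 349 in E11.5 WT. Calls between chromosomes of all kinds, promoters or not, went the other way, at 5899 to 7927 per library in Ezh2cKO and 4983 to 5726 in E11.5 WT, with no overlap. Unlike the promoter pairs, this total includes the calls of the Wnt1 bait. Over the span of the Ddn partners, promoters or not, the mean was 330.75 calls per library in Ezh2cKO and 306.88 in E11.5 WT.

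With 2 E8.5 libraries, a Fisher's exact test of a single pair against the 8 E11.5 WT libraries cannot go below 0.0222, so stage was described by presence. Of the 259 recurrent pairs, 81 (31.3%) were called in at least 4 of 8 E11.5 WT libraries and in neither E8.5 library, against 17.6% of all interactions. They comprised 36 Ddn, 17 Hox and 14 histone pairs, 13 of single fragments with 1 region and 1 other. Of these, 7 were called in all 8 E11.5 WT libraries (2.7%, against 2.22% of all interactions), all of the Ddn fragment, among them those with Igfbp1, a binding protein of insulin-like growth factors, and Pold2, a DNA polymerase subunit. The reverse, both E8.5 libraries and no E11.5 WT library, held for 2 pairs (0.772%), against 1.19% of all interactions. These were Gm5414 with Mcts2 and Cacybp with Sertm1. All 28 histone pairs were among the 147 (56.8%) not called in E8.5, against 53.7% of all interactions.

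For the deletions, presence was likewise described, since Fisher's exact test cannot go below 0.0286 with 4 against 4 libraries or 0.333 with 2 against 2. Of the 259, 36 (13.9%) were called in all 4 WT Md and PA2 and in no 36kb deletion library, against 1.45% of all interactions. Of these 30 were Ddn pairs, 5 were pairs of single fragments with 1 region and 1 was a Hox pair, and 0 were gained by the reverse rule, against 1.4% of all interactions. For 42kb deletion 80 (30.9%) were called in both WT PA2 libraries and neither deletion library, against 7.91% of all interactions. They comprised 41 Ddn pairs, 24 of single fragments with 1 region, 8 Hox pairs, 4 others and 3 histone pairs, and Dut with Prdx2 and Syngr2 with Nom1 were among them. The reverse held for 5 (1.93%, against 4.87% of all interactions), 3 of the chromosome 11 fragment and 2 histone pairs, H3c6 with H4c14 and the H3c3 and H2bc3 fragment with H4c14. The number of all promoter pairs on different chromosomes was 150 and 193 in 36kb Md, 144 and 250 in 36kb PA2, and 320 and 276 in 42kb PA2, against 290 and 300 in WT Md and 307 and 283 in WT PA2. Recurrent pairs were 20.4% to 31.33% of these in 36kb deletion, 8.75% and 11.96% in 42kb deletion, and 39.26% to 45.23% in E11.5 WT.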

How the data were processed

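Promoter capture Hi-C interactions of 24 libraries were used as deposited, 1 list per library. Per the names of the deposited files the authors called interactions with CHiCAGO, and each row gives 2 fragments and a score. No deposited score was below 5, and the submitters' processing notes name GRCm38 and mm10. Read depth is unknown (aligner, caller version and read numbers not given in the sources used here), and a missing call is not evidence of no contact. Scores are relative to each library's own background.

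Both directions of a fragment pair were counted once, and a fragment seen as bait in any list counted as a bait. Of 22203 baits, 16571 were named, by RefSeq protein-coding genes of GRCm38.p6 with an annotated start in the fragment or within 1 kb (either gene end where no strand was given), and 1860 of these have several names. The named genes are the baits with the most pairs, the pairs called in the most libraries, those with the smallest p or complete separation, the baits with the largest limma changes, and examples of each gene class. The pairs, gene lists and comparisons were chosen with earlier results of these data known, and the families were described after the pairs had been listed.

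Presence was tested with two-sided Fisher's exact tests over libraries, Benjamini-Hochberg adjusted over all interactions called in at least 4 libraries, and the share of promoter pairs with an exact permutation test within tissues. Partner numbers were tested with limma 3.58.1 in R 4.3.3 on log2 of the count plus 0.5, scaled to the library's promoter pairs on different chromosomes, over 12 group means with a trend of the spread, at an adjusted p of 0.05 or less. The limma p-values measure the spread between 2 replicates per group. Other work used Python 3.11.15, numpy 2.4.6, pandas 2.3.3, scipy 1.17.1 and matplotlib 3.10.9, and the tests were tried on simulated data. The PA2 36kb deletion replicate 2 was grouped by its title, since its genotype label repeats another sample's title. E10.5 cells named in the design were not analysed here. One bait fragment among the single-fragment contacts is not reported here by name, though it is kept in all counts.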

Additional observations from a re-analysis of the deposited data

How the results depend on the processing

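No call reversed under any alternative. The share of promoter pairs on different chromosomes passed under every alternative tried, with differences of -0.04536 to -0.03885 without each library in turn. Of called limma results, 0 of 30 for Ezh2cKO, 1 of 7 for stage, 8 of 12 for 36kb deletion and 12 of 22 for 42kb deletion were lost under at least 1 alternative, and 1 of 6 single pairs. A bait that an alternative no longer tested was not counted as lost. Of the 30 Ezh2cKO results, 22 were called at a score of at least 7 and 17 with a mean of at least 2 partners. Of the 7 stage results, 4 were called with a mean of at least 2 partners. Counts of called baits moved as follows from 30 (Ezh2cKO), 7 (stage), 12 (36kb) and 22 (42kb). With a mean of at least 2 partners they were 17, 4, 8 and 14, over 27 baits. With the Wnt1 bait kept they were 55, 16, 45 and 58, over 85 baits. With no filter over 4957 baits they were 1621, 59, 3861 and 122, and in Ezh2cKO 1563 and in 36kb deletion 3800 were higher. The planned fit with a trend could not be run on so many tied means, so this one, chosen after seeing the data, has none. With the scaling to the library, a bait at 0 partners on both sides still takes a change. Mcts2, at 0 in 36kb deletion and in WT Md and PA2, had a log2 change of 0.71. The median log2 change over the 4957 baits was 0.71 for 36kb deletion and 0.34 for Ezh2cKO. The counts of higher baits therefore do not measure gained partners. With 1 added to the count 36kb deletion gave 7, relative to all called interactions 30 and with no scaling 33. Without each library in turn the counts were 30 to 33, 6 to 10, 7 to 14 and 13 to 18. The 7 came without WT Md replicate 1 or WT PA2 replicate 2 and the 13 without WT PA2 replicate 2. Where an arm kept 1 library, it is assumed to vary like the other groups. With only the 259 recurrent pairs tested, 14 passed Fisher's test (7 in each direction), and without each library 946 to 1001 interactions and 6 to 8 recurrent pairs passed. A threshold of 6 libraries gave 171 recurrent pairs, and a score of at least 7 gave 201. The 53 Hox pairs fell to 23 and 27 under these rules, and the 28 histone pairs to 20 and 18. Without the Ddn fragment, an alternative chosen after seeing the data, 193 pairs, 4 Fisher calls (all more in Ezh2cKO) and 29, 8, 15 and 23 baits were found. Replicate numbers do not pair the libraries, since same-numbered deviations correlated with a median of -0.009 over 66 pairs of groups. A replicate block gave 30, 7, 11 and 22, and H4c14 in 36kb deletion was then lost (adjusted p = 0.0563). Depth is unknown, so absence of a call below the deposited score cannot be told from absence of contact.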
